A study of Mus musculus with 2 samples.

Results

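Cytochrome P450 enzymes and the enzymes that conjugate their products were followed in the fetal lung of mice carrying the Foxj1lacZ allele. Members were the array probes whose gene name in the scanner file began with Cyp, Gst (classes alpha, mu, pi, theta, omega and zeta), Fmo, Ugt or Sult followed by a family number, and a probe was kept when its signal stood well above background in either channel. The array carried 172 such probes for 120 genes, of 41167 probes for 27593 genes in all. Of these, 126 probes for 97 genes were kept, of 21172 genes detected on the array. The 97 genes comprised 57 cytochrome P450 (Cyp), 19 glutathione transferase (Gst), 5 flavin-containing monooxygenase (Fmo), 8 UDP-glucuronosyltransferase (Ugt) and 8 sulfotransferase (Sult) genes.

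One lung came from a heterozygous and 1 from a homozygous Foxj1lacZ embryo, male littermates at E16.5 on an Sv129/CD-1 hybrid background, so that both lungs carried the lacZ allele and no wild-type lung was on the array. The lobes were used whole after the tissue around them had been taken off, although the source names speak of epithelium. Heterozygous RNA was labelled with Cy3 and homozygous RNA with Cy5, both on 1 two-colour Agilent array without a swapped hybridisation. A genotype effect and a dye effect cannot be told apart here, and since each genotype is a single lung there is no replicate and no test. A ratio is the log2 of the homozygous signal divided by the heterozygous signal, and levels are log2 normalised intensities of each channel. The error after ± is the one the scanner software attaches to its log ratio, which covers spot and channel noise and not differences between animals. A difference of at least 2-fold, that is a ratio at or beyond 1 or −1 on the log2 scale, was used as a rule of size.

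Cytochrome P450s and flavin-containing monooxygenases insert oxygen into small molecules, either foreign compounds or the body's own sterols, steroids, retinoids and fatty acids. Glutathione transferases, glucuronosyltransferases and sulfotransferases then join a polar group to the oxygenated product, which makes it easier to excrete. In the lung these enzymes are best known from club cells, the secretory cells of the bronchioles, whose Cyp2f2 activates naphthalene. In bulk tissue fewer cells of a type and less RNA per cell cannot be told apart.

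Of the 97 genes, 3 were lower in the homozygous lung by at least 2-fold, a share of 3.09%, against 1.88% of all detected genes. At least 2-fold higher stood 0 of the 97, against 0.576% of all detected genes. The 3 lower genes were the club cell cytochrome Cyp2f2, the monooxygenase Fmo2 and the phenol sulfotransferase Sult1a1, each from another family. The array-wide split of 398 lower to 122 higher genes became 302 to 724 with median centring instead of loess, and 1143 to 593 with the ratio that the scanner software computed. Median centring moved the median of all genes to 0.22, and relative to that median 6 of the 97 members were at least 2-fold lower and 0 higher, against 3.08% and 1.5% of all detected genes.

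Probes of this array are 60 bases long, and those that read the 3 lower genes and the single gene nearest to 2-fold higher, Cyp2r1, are shown by their first 30 bases, 5′ to 3′, since each result below rests on these few probes. Positions are those in the scanner file, on mm8. Which exon or UTR they fall in was not read here.
Cyp2f2, chr7:26842311-26842370: aatgacgtgacaaaggtgaaatacccgtct
Fmo2, chr1:164713371-164713430: cttctttttccaacttcaggggttttaatc
Fmo2, chr1:164724845-164724904: tcagatcatcttgaattatacttggaatta
Fmo2, chr1:164712074-164712133: acattataggtaagaaaagcaaatctcagc
Sult1a1, chr7:126464239-126464298: aaatatgagtggatatggctatactgggaa
Cyp2r1, chr7:114341512-114341571: catcattacttcagcaatttcatttgcatt

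Cyp2f2 had a level of 14.32 in the heterozygous and 12.80 in the homozygous channel. Its 1 probe was well above background in both channels, and the homozygous lung gave the lower signal. The log2 ratio was −1.52 ± 0.25, 2.86-fold lower, and the scanner software gave −1.50. Fmo2, which oxygenates sulfur and nitrogen compounds and is the form best known from lung, was read by 3 probes. In the heterozygous against the homozygous channel these stood at 10.42 and 8.90, at 9.04 and 7.88, and at 11.16 and 9.72. All 3 were lower in the homozygous lung, with ratios of −1.52, −1.16 and −1.44. The gene's median ratio was −1.44 ± 0.25, 2.72-fold lower. Sult1a1, which sulfates phenols, had levels of 11.84 and 10.47 in the heterozygous and homozygous channel at its 1 probe. Its ratio was −1.37 ± 0.24, 2.59-fold lower. Under median centring Cyp2f2 stood at −0.84, Fmo2 at −0.93 and Sult1a1 at −0.82, none of them 2-fold. Relative to the array median of 0.22 under that centring they stood at −1.06, −1.15 and −1.05.

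Just outside 2-fold on the lower side lay Cyp4x1, an orphan of the fatty acid family, with levels of 8.59 and 7.67 and a ratio of −0.92 ± 0.24. Next came Cyp2s1, a cytochrome of surface epithelia, with levels of 12.66 and 11.78 and a ratio of −0.88 ± 0.22. Cyp1b1, which oxidises oestrogens and polycyclic hydrocarbons outside the liver, followed with levels of 9.12 and 8.25 and a ratio of −0.87 ± 0.22. These 3 lay between 1.83-fold and 1.89-fold lower. Cyp2s1 stood at −0.30 under median centring (−0.52 relative to the array median), and without the filter on dim probes, which adds a second probe not above background to each, Cyp2s1 stood at −0.38 and Cyp1b1 at −0.40. On the higher side Cyp2r1, a vitamin D hydroxylase, was closest to 2-fold. Its levels were 7.06 and 8.04 and its ratio 0.98 ± 0.28, 1.97-fold higher. Its heterozygous level was about 2-fold above the median of the negative control spots, 6.04, and the scanner software's ratio was 1.72.

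**Figure D1:**
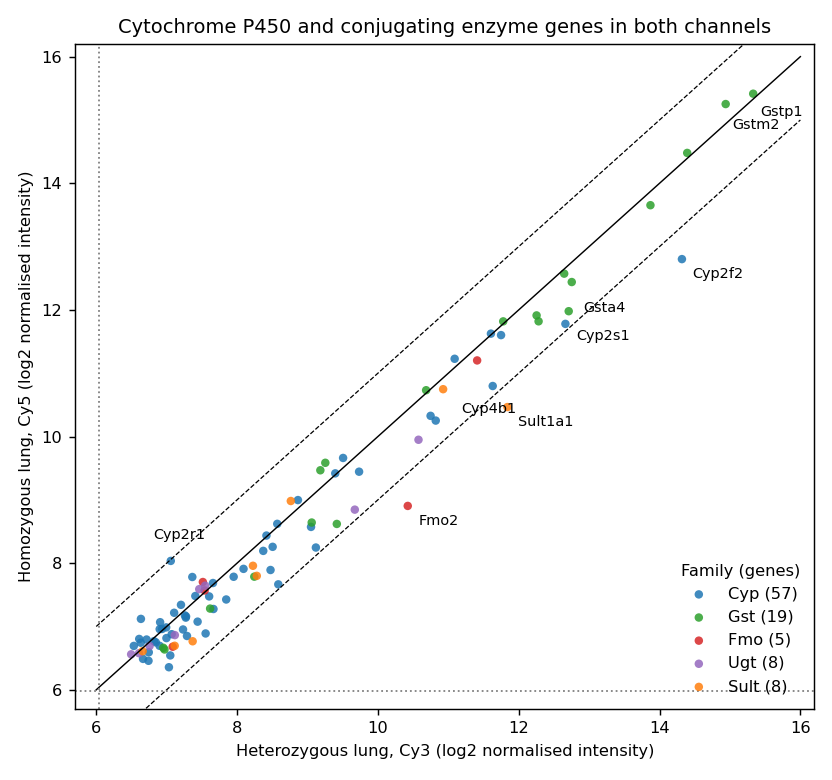
Level of each of the 97 detected genes in the heterozygous (Cy3, x axis) and homozygous (Cy5, y axis) channel, in log2 normalised intensity, 1 point per gene and 1 colour per family. The solid line marks equal levels, dashed lines 2-fold differences and dotted lines the median of negative control spots. Cyp2f2, Fmo2 and Sult1a1 lie below the lower dashed line, while Cyp2r1 lies just inside the upper one.

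Below 0 lay the ratios of 62 of the 97 genes (63.9%), against 50.4% of all detected genes, and 35 lay above 0. The median of the 97 was −0.17, with quartiles at −0.42 and 0.07. The median of all detected genes was −0.00, with quartiles at −0.19 and 0.15. Between −1 and −0.5 lay 13 members and within 0.5 of 0 lay 80, while 1 was at 0.5 or above. The ratio was below 0 by more than the scanner error for 36 of the 97 genes, against 20.1% of all detected genes, and above 0 by more than it for 7, against 14.9%.

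Dim genes were looked at apart. A gene was called well measured when it was at least 2-fold above the median negative control level in both channels, which held for 65 of the 97. Among the 65, 3 (4.62%) were at least 2-fold lower, against 1.94% of 16532 well measured genes on the array. At least 2-fold higher were 0 of the 65, against 0.611% on the array. Below 0 were 61.5% of the 65, against 50.1% on the array. Of the 32 others, 0 were 2-fold lower and 68.8% were below 0, against 1.88% and 50.4% of all detected genes. The shares over the array's genes that were not well measured were not counted apart.

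The 19 glutathione transferases split by class. All 4 detected genes of the alpha class, on chromosome 9 except Gsta3, had ratios below 0, with a median of −0.59, and all 4 were also below 0 under median centring, with the scanner software's ratio and with an offset of 0. Gsta3 had levels of 9.42 and 8.62 over 2 probes, whose ratios were −0.93 and −0.66, and its gene ratio was −0.80 ± 0.22. Gsta4, which conjugates aldehydes from lipid peroxidation, had levels of 12.71 and 11.98 and a ratio of −0.73 ± 0.21. Under median centring Gsta4 stood at −0.14, or −0.36 relative to the array median. Gsta1 stood at −0.46 and Gsta2 at −0.33. Every gene of the class was thus lower in the homozygous channel, by 1.26-fold to 1.74-fold, and 0 of the 4 passed 2-fold.

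The 7 mu class genes lie side by side on chromosome 3 and had a median of 0.09. Gstm2, with levels of 14.94 and 15.25, had a ratio of 0.31 ± 0.21. Gstm4 stood at 0.33, Gstm7 at 0.28 and Gstm5 at 0.09. Gstm1, Gstm3 and Gstm6 lay below 0, though above it under median centring except for Gstm6. Gstm1 was read by 2 probes at −0.47 and −0.22, with a gene ratio of −0.34. Gstm3 stood at −0.31 and Gstm6, which was not well measured, at −0.29 ± 0.35. Under median centring 1 of the 7 was below 0, the class median was 0.68 (0.46 relative to the array median) and Gstm2 stood at 1.14, or 0.92 relative to the array median. Its members are close in sequence, and whether their probes share signal was not tested.

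Gstp1, the only pi class gene, had levels of 15.33 and 15.41, with a ratio of 0.08 ± 0.20 and a software ratio of −0.02. Under median centring it stood at 0.94, or 0.72 relative to the array median. Of the 7 theta, omega and zeta genes 5 were below 0, with a median of −0.22. That median became 0.48 under median centring, or 0.26 relative to the array median. Gstt3 stood at −0.46 (0.12 under median centring, but −0.10 relative to the array median), Gsto2 at −0.42 and Gstt4 at −0.33 ± 0.38. Gstt4 was not well measured. Gsto1, which reduces dehydroascorbate and had levels of 13.87 and 13.65, stood at −0.22 (0.48 under median centring). Gstt2 (−0.07), Gstz1 (0.04) and Gstt1 (0.05) lay close to 0. The median over all 19 glutathione transferases was −0.29. Under median centring it was 0.29, or 0.07 relative to the array median, so that its direction depends on the scaling.

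**Figure D2:**
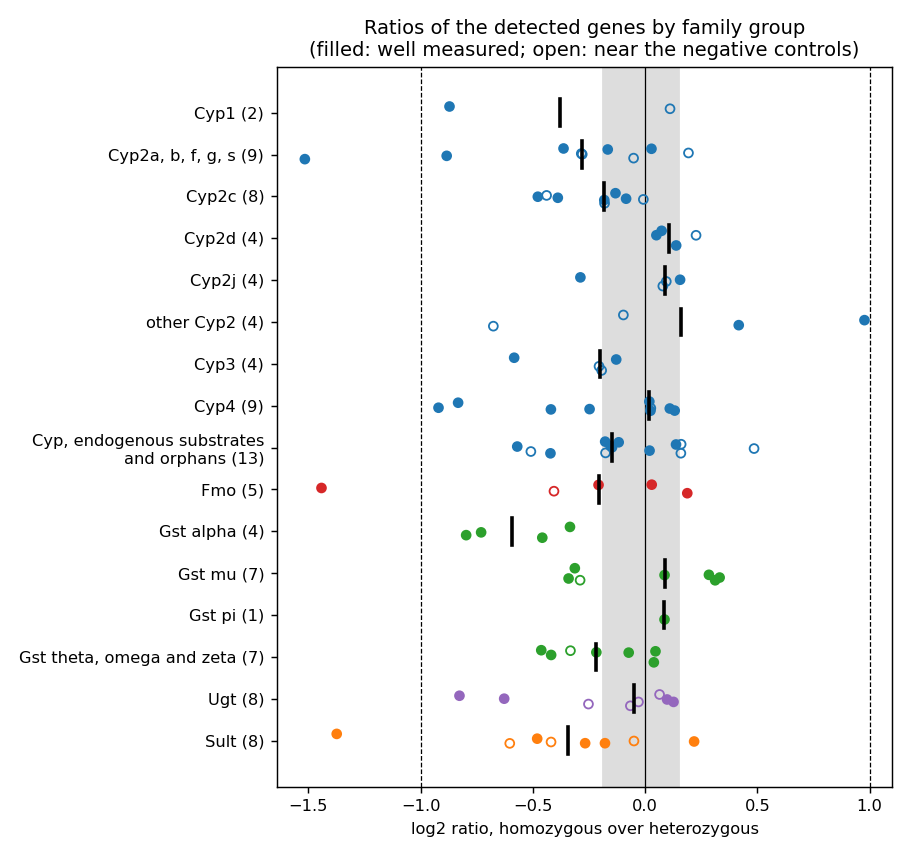
Log2 ratio of homozygous over heterozygous (x axis) for each of the 97 detected genes by family group (y axis, with the number of genes). Filled points are well measured genes and open points lie near the negative controls, black bars are group medians, dashed lines mark 2-fold and the grey band spans the quartiles of all detected genes. The alpha class of glutathione transferases (median −0.59) lies wholly below 0, while the mu class (median 0.09) lies on both sides.

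Among 57 cytochrome P450 genes, 35 were below 0 and 22 above, with a median of −0.13, and −0.42 relative to the array median under median centring. The Cyp2 genes of chromosome 7 form a cluster of subfamilies a, b, f, g and s that runs over 1331 kb between the first and last probe on mm8. Of its 9 detected genes 7 were below 0, with a median of −0.28. Cyp2f2 at one end (−1.52) and Cyp2s1 at the other (−0.88) had the lowest ratios. Between them lay Cyp2b9 at −0.36, Cyp2b10 at −0.28, Cyp2b13 at −0.28, Cyp2b19 at −0.17 and Cyp2g1, known from olfactory mucosa, at −0.05. Cyp2a4 stood at 0.03, and Cyp2a5, the nearest detected member to Cyp2f2 at a distance of 290 kb, at 0.19 ± 0.53. Cyp2b10, Cyp2b13, Cyp2g1 and Cyp2a5 were not well measured.

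The 8 Cyp2c genes of chromosome 19, a family known for arachidonic acid and drug oxidation, were below 0 without exception, from −0.48 to −0.01 with a median of −0.18. They were also all below 0 with an offset of 0, under median centring and with the scanner software's ratio, which all reuse the same spots. Of the 8, 5 were well measured. The ratios of Cyp2c70, Cyp2c65, Cyp2c66, Cyp2c37 and Cyp2c55 lay within their scanner error. Cyp2c23, named Cyp2c44 in the file, was the lowest, with levels of 9.05 and 8.57 and a ratio of −0.48 ± 0.21. Cyp2c40 stood at −0.44, but its 2 probes disagreed, at −0.94 and 0.06. The 4 detected Cyp3 genes, best known as drug-oxidising enzymes of liver and gut, lay between −0.58 for Cyp3a41a and −0.13 for Cyp3a13, below 0 under the same 3 settings too. Of these 4, 2 were well measured, and all but Cyp3a41a lay within their scanner error. The 4 Cyp2d genes lay between 0.05 for Cyp2d9 and 0.23 for Cyp2d22, each within its scanner error, and Cyp2d22 was not well measured. Under median centring 3 of the 4 were below the array median. The 3 probes of Cyp2d22 ran from −0.03 to 0.56. The Cyp2j genes were 1 below and 3 above 0, from −0.29 for Cyp2j9 to 0.16 for Cyp2j6. Only these 2 of the 4 were well measured. Cyp2j13 stood at 0.09, but its 3 probes ran from −0.74 to 0.14. Under median centring the Cyp2j genes split 2 to 2, with Cyp2j9 at 0.15. Relative to the array median under that centring 3 of the 4 were below, with Cyp2j9 at −0.07. Genes of these tandem families resemble each other closely, and shared hybridisation between them was not tested.

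**Figure D3:**
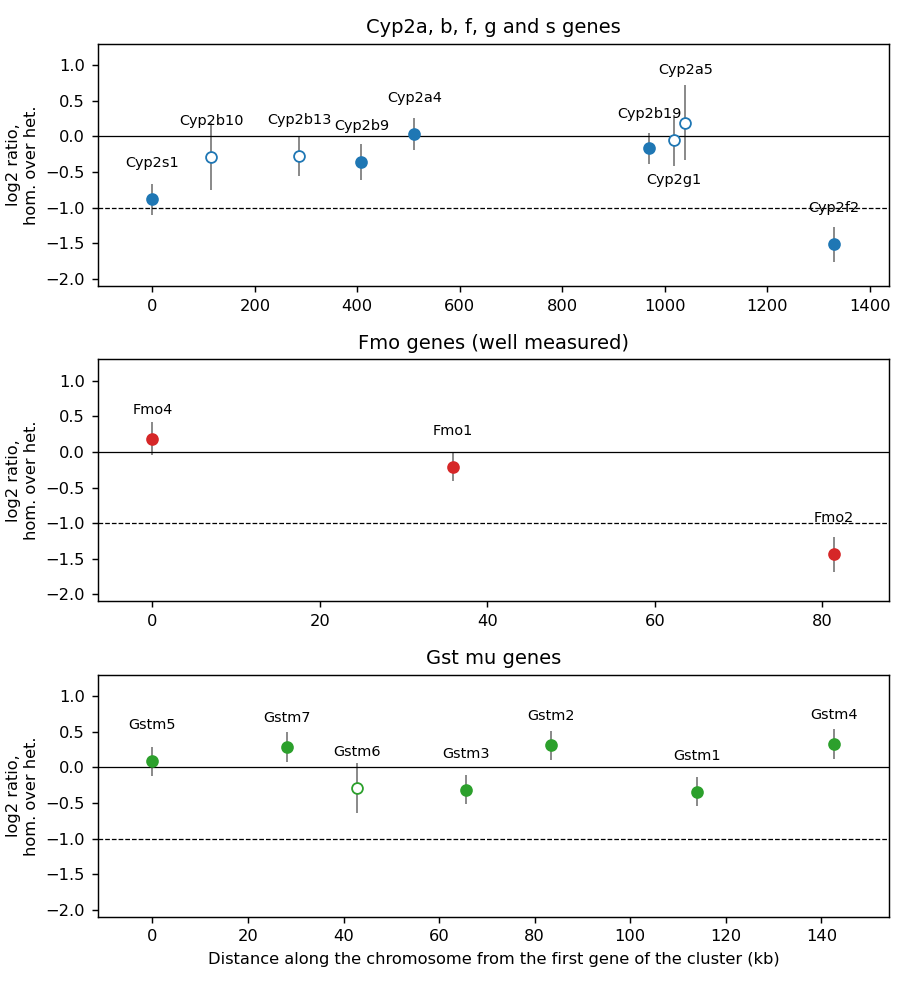
Log2 ratio of homozygous over heterozygous (y axis) against distance in kb from the first gene of the cluster (x axis) for the Cyp2 genes of chromosome 7, the well measured Fmo genes of chromosome 1 and the Gst mu genes of chromosome 3. Points are gene medians, filled when well measured, and bars are the scanner error. Cyp2f2 (−1.52) and Fmo2 (−1.44) lie below the dashed line of 2-fold lower while the other genes drawn lie above it.

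Among 9 Cyp4 genes, most of which hydroxylate fatty acids, the median was 0.02. Below the rest lay Cyp4x1 (−0.92) and Cyp4b1, an abundant cytochrome of rodent lung that activates furan toxins, with levels of 11.63 and 10.80 and a ratio of −0.83 ± 0.22. Under median centring Cyp4b1 stood at −0.28, or −0.50 relative to the array median. The highest was Cyp4f16 at 0.13. Of the cytochromes with endogenous substrates, Cyp26b1, which degrades retinoic acid, had levels of 10.82 and 10.25 and a ratio of −0.57 ± 0.21. Under median centring Cyp26b1 stood at −0.05, or −0.27 relative to the array median. Cyp46a1, a cholesterol hydroxylase, stood at −0.42 (0.10 under median centring, but −0.12 relative to the array median). The oxysterol hydroxylase Cyp39a1, with levels of 11.75 and 11.60, stood at −0.15 (0.42 under median centring, 0.20 relative to the array median) and Cyp7b1, another, at 0.14. Cyp11a1, which cleaves the side chain of cholesterol, was the highest of the group at 0.49 ± 0.43, with levels of 6.63 and 7.12 near the negative controls. Cyp2u1, a fatty acid hydroxylase, had levels of 7.36 and 7.78 and a ratio of 0.42 ± 0.24.

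Of the Fmo family, 1 gene was at least 2-fold lower and 0 were higher. Fmo1, 45.5 kb from Fmo2 on chromosome 1, had levels of 11.41 and 11.20 and a ratio of −0.21 ± 0.20. Under median centring Fmo1 stood at 0.35, or 0.13 relative to the array median. Fmo4, on the same chromosome, stood at 0.19 ± 0.23 with levels of 7.51 and 7.70. Fmo5, on chromosome 3, stood at 0.03. The difference between Fmo2 and Fmo1 was seen with every 1 of the 3 Fmo2 probes, of which the one closest to 0 had a ratio of −1.16.

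Of the 8 sulfotransferases 7 were below 0, with a median of −0.34. After Sult1a1 came the oestrogen sulfotransferase Sult1e1 at −0.60 ± 0.31, with levels of 7.37 and 6.77. Sult4a1 followed at −0.48 and Sult1c2 at −0.42 ± 0.31. Sult1e1 and Sult1c2 were not well measured. Sult2b1, which sulfates cholesterol, was the only 1 above 0, with levels of 8.76 and 8.98 and a ratio of 0.22 ± 0.21. Of the 8 glucuronosyltransferases 5 were below 0, with a median of −0.05. Ugt2b34 had levels of 9.67 and 8.85 and a ratio of −0.83 ± 0.22. The Ugt1a probe, named for the whole locus in the file and for Ugt1a6b by its accession, had levels of 10.58 and 9.95 and a ratio of −0.63 ± 0.21, or −0.13 under median centring and −0.25 without the filter on dim probes. The genes of that locus share exons, so the probe need not read 1 gene alone. Ugt8a, which makes galactosylceramide, was the highest at 0.13.

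Only 1 channel was well above background for 8 genes. Cyp2e1, the ethanol-oxidising cytochrome, was above background in the heterozygous channel only, with levels of 7.03 and 6.36 and a ratio of −0.68 ± 0.51. Its homozygous level was above the lowest signal well above background in that channel, 6.32, so the bound is the ratio itself, 1.60-fold lower. With that error, and a ratio of −0.58 without background correction, 1.60-fold is an estimate and not a minimum. The other gene above background in the heterozygous channel only was Cyp2b10. Cyp11b2, Cyp1a2, Cyp21a1, Cyp2j11, Ugt2a1 and Ugt2b37 were above background in the homozygous channel only, with ratios from −0.18 to 0.16. Not well above background in either channel were 23 genes on the array, 14 of them Cyp, 6 Ugt, 2 Sult and 1 Fmo. Among these were the inducible Cyp1a1, the retinoic acid hydroxylase Cyp26a1, the aromatase Cyp19a1 and the bile acid enzyme Cyp8b1.

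Probes of a gene were compared where a gene had several. This was the case for 26 members, and the SD of the log2 ratio between probes of a member was 0.26. Over all genes of the array with several probes it was 0.27. Between repeated spots of a probe it was 0.07, over 245 probes of the whole array. In 10 of the 26 the probes had opposite signs. In 4 genes they lay more than 0.5 apart and in 0 more than 1 apart. Fmo2, with 3 probes at or below −1.16, alone among the 3 lower members had more than 1 probe.

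**Figure D4:**
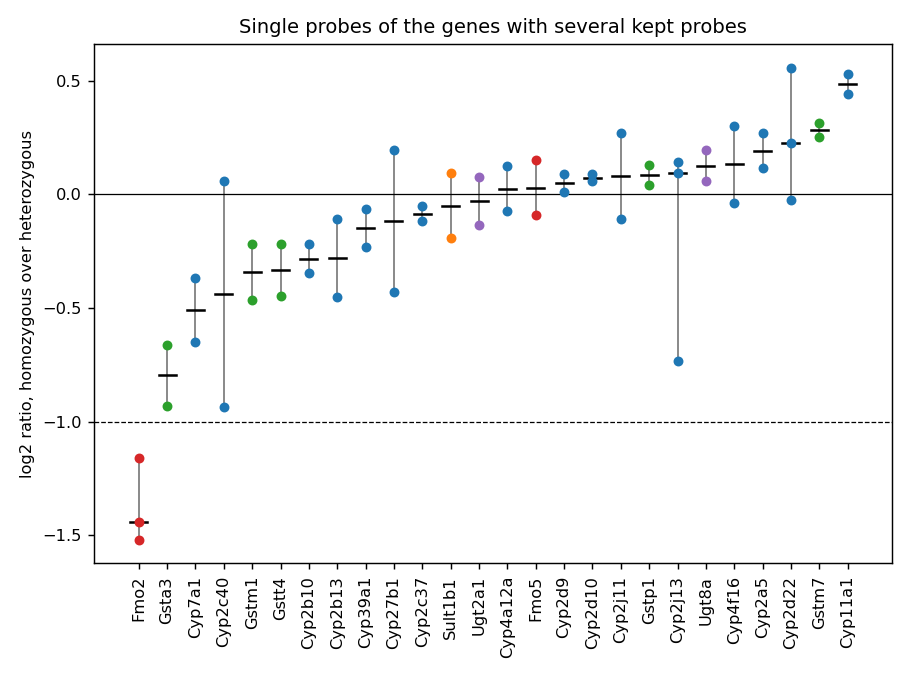
Log2 ratio of homozygous over heterozygous (y axis) of every kept probe for the 26 genes with several kept probes (x axis), 1 point per probe, with a bar at the gene median and the family as colour. All 3 Fmo2 probes (−1.52, −1.44 and −1.16) lie below the dashed line of 2-fold lower, and in 10 genes the probes lie on both sides of 0.

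The log ratio deposited from the scanner software, made with other background and dye corrections, gave 8 members at least 2-fold lower and 2 higher, with array-wide shares of 5.4% and 2.8%. Lower and well measured were Cyp2f2, Fmo2, Sult1a1 and Cyp4x1 (−1.18). Lower and near the negative controls were Cyp2e1 (−2.53), Sult1e1 (−1.33), Cyp7a1 (−1.22), which is the rate-limiting enzyme of bile acid synthesis, and Cyp2b10 (−1.06). The 2 higher were Cyp2r1 at 1.72 and Cyp11a1 at 1.66. The median distance between both ratios was 0.05 for the 65 well measured genes and 0.35 for the 32 others.

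**Figure D5:**
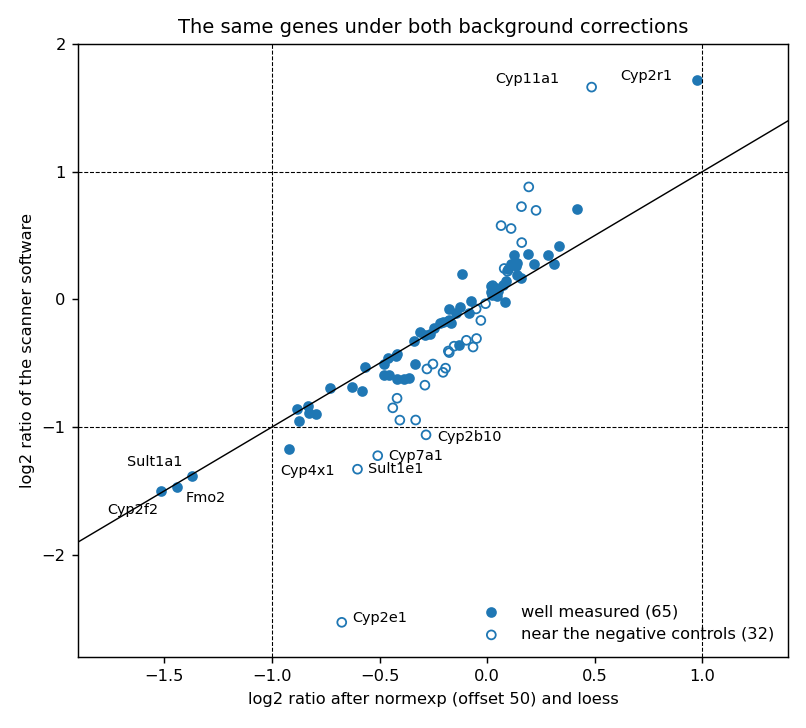
Log2 ratio from the scanner software (y axis) against the log2 ratio after normexp and loess (x axis), homozygous over heterozygous, 1 point per detected gene, filled when well measured (65) and open when near the negative controls (32). The solid line marks equal values and dashed lines 2-fold, and Cyp2e1 (−2.53 against −0.68), the point farthest from the solid line, is open, while Cyp2r1 (1.72 against 0.98) is the farthest filled point.

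Stretches upstream of the start sites are shown for the 3 lower genes, since forkhead factors bind DNA and the allele is one of a forkhead gene. They are the 250 bases before each RefSeq start on GRCm38.p6, 5′ to 3′ on the gene's strand, and capitals mark matches, on either strand, to the motifs listed after them.
Cyp2f2, chr7:27119705-27119954, plus strand: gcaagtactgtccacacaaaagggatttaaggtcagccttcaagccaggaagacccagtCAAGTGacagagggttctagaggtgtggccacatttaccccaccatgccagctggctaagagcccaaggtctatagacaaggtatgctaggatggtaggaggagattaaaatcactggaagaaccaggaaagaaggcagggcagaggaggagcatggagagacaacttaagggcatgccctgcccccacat
Fmo2 first start, chr1:162898759-162899008, minus strand: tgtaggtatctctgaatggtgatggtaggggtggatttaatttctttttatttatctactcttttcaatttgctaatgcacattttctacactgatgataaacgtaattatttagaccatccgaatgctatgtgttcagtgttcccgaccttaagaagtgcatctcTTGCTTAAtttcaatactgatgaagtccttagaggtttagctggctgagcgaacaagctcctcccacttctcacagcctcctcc
Fmo2 second start, chr1:162898494-162898743, minus strand: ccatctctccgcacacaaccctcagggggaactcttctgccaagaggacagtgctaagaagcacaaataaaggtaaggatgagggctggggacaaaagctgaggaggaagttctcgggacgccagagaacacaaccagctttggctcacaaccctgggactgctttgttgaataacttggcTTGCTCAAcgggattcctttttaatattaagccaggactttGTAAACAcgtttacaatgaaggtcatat
Sult1a1, chr7:126676419-126676668, minus strand: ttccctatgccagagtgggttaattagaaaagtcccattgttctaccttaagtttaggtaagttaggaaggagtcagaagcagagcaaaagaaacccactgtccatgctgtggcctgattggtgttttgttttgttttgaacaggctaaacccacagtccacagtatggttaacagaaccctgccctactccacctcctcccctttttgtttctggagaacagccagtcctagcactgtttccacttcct
The motifs searched were a forkhead core (TGTTTAC), an NKX2-1 core (CAAGTG), a CEBP core (TTGCNNAA), an AHR-ARNT core (GCGTG) and an antioxidant response core (TGACNNNGC). The Cyp2f2 stretch held CAAGTG from base 191 to 186 before the start. The first Fmo2 stretch held TTGCTTAA and the second held TTGCTCAA and the forkhead core as GTAAACA, from base 28 to 22 before the start. The Sult1a1 stretch held 0 matches. Of 32851 RefSeq promoters 3.17% held the forkhead core, 11.6% the NKX2-1 core, 9.56% the CEBP core, 28.2% the AHR-ARNT core and 10.2% the antioxidant response core. Of 88 promoters matched to 75 members, 7.95%, 9.09%, 17.0%, 20.5% and 4.55% held them, in the same order. A match describes letters and not binding.

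Genes that work beside these enzymes were counted from lists of their own, 92 detected genes in all, with a median of −0.04. Of the 92, 3 were at least 2-fold lower and 0 higher, against 1.88% and 0.576% of all detected genes. The 11 electron suppliers included 0 at 2-fold, and Por, the reductase that feeds the microsomal P450s, stood at −0.33 ± 0.21 with levels of 13.72 and 13.39. Of 26 hydrolases and other oxidoreductases 1 was lower, Cbr2, a carbonyl reductase abundant in mouse lung. Its levels were 15.87 and 14.13 and its ratio −1.75 ± 0.26. Cbr2 is counted again among the lower club cell markers below, and Aldh1a7 (0.36) is on both lists too. Of 11 genes of donor supply and other conjugation 2 were lower, the methyltransferases Inmt at −1.14 ± 0.26 and Nnmt at −1.05 ± 0.24. Papss1, which makes the sulfate donor, stood at −0.26 and Ugdh, which makes the glucuronic acid donor, at −0.18. Among 18 genes of glutathione supply and membrane glutathione transferases 0 passed 2-fold, 10 were below 0, and Mgst1 stood at −0.55. Among 16 receptors and regulators 0 passed 2-fold, with Ahr, the aryl hydrocarbon receptor, at −0.46. Of 10 efflux transporters 0 passed 2-fold and 4 were below 0.

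Markers of cell types were read on the same array. Of 15 detected club cell markers outside the members 6 were at least 2-fold lower and 1, Retnla at 1.21, higher, with a median of −0.73 and a range from −3.19 to 1.21. Their summed level, log2 of the summed intensities, was 18.20 in the heterozygous and 17.19 in the homozygous channel. The defining club cell gene Scgb1a1 had levels of 11.91 and 9.45 and a ratio of −2.47. Of 16 motile cilia markers 16 were lower, with a summed level of 15.38 against 13.00. Foxj1 itself, counted among them, stood at −1.92 with levels of 9.53 and 7.61. Whether its probe lies in the part removed by the lacZ allele was not settled, so the value is no check of the genotype labels. The 12 general markers of lung epithelium had a median of −0.04 and 0 at 2-fold. Of 12 alveolar type II markers 3 were lower and 8 were below 0, with a median of −0.52. Their summed level, however, was 17.46 in the heterozygous and 17.62 in the homozygous channel. Sftpc, with levels of 17.09 and 17.41, stood at 0.33, and at −0.31 with the scanner software's ratio. Hepatocyte markers, which share enzymes with these families, had a median of 0.35 over 14 genes with 1 at least 2-fold higher, Ahsg at 1.06, and Alb stood at 0.78. Below 0 were 3 of the 14, among them Rbp4 at −0.61 and Tat at −0.60. The summed level of the 14 was 13.88 in the heterozygous and 13.82 in the homozygous channel. Of 12 striated and cardiac muscle markers 7 were lower, with a summed level of 15.65 against 14.25. The medians of 8 steroidogenic, 10 leukocyte, 9 endothelial, 12 smooth muscle and mesenchyme, 9 erythroid and 8 mesothelial markers were −0.05, 0.24, −0.09, −0.00, −0.84 and 0.45. The part of any of these cell types in the values of the enzymes was not tested.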

How the data were processed

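RNA of 1 heterozygous and 1 homozygous lung was read on 1 array with 2 channels, and the 2 deposited scanner files hold identical values of that array. Spot and local background intensity values were deposited as scanned, per the file headers. The processed intensity values were background-subtracted and dye-normalised by Agilent Feature Extraction 9.5.3.1 (per the submitters' processing notes). The deposited log10 ratio and its log10 error come from that software, per the file headers. The value table deposited by the authors holds, for each sample, the processed intensity of its channel multiplied by 1.68, with no value under 15, found by comparison with the scanner values (SD of the log2 factor 0.024 and 0.018 for the matching and 0.528 and 0.529 for the opposite channels). Its medians were 139.8 (heterozygous) and 138.8 (homozygous), and the reason for the factor is unknown.

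Here mean signals were corrected by normexp with the local median background and an offset of 50, which pulls dim ratios towards 0, then loess-normalised within the array, giving control spots weight 0 (limma 3.58.1, R 4.3.3, data.table at version 1.17.8; Python 3.11.15, numpy 2.4.6, pandas 2.3.3, matplotlib 3.10.9). Among 43379 transcript spots, the share well above background was 69.0% for the heterozygous and 75.6% for the homozygous channel. Outlier spots (169, 1 of them a member's) were left out, and 0 spots were saturated. Spots of a probe were averaged. A probe passed where over 0.5 of its spots were well above background in either channel, and genes were summarised by the median of passing probes. Of the member probes 154 were named through their accession and 18 through their symbol in a RefSeq gene table of GRCm38.p6, which renamed 4 genes, and promoters are from RefSeq on that build. The normexp and loess steps were checked on simulated ratios, judged at bright spots only. The filter on dim probes and the gene summary were not checked in this way.

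No test was possible with 1 lung per genotype. Members, gene lists and settings were chosen with earlier results of these data known, and the rule for well measured genes was added after the values were seen. Genes named by rule were those at or past 2-fold, the lowest, highest and brightest of each group, those nearest to 2-fold, those with a bound above 1.5-fold and the neighbours of Cyp2f2. Other genes, such as other Fmo, Gst alpha and Gst mu genes, were named after their values were seen, and 1 member is counted but not reported singly here. With a single array, the precision is limited by that number.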

Additional observations from a re-analysis of the deposited data

How the results depend on the processing

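Counts of members at least 2-fold lower or higher were 5 and 1 with a normexp offset of 0, 0 and 1 with median centring in place of loess, 8 and 2 with the scanner software's ratio, and 8 and 2 with the authors' value table, against 3 and 0 as reported. The shares of all detected genes under these settings were 3.65% and 1.04%, 1.43% and 3.42%, 5.4% and 2.8%, and 5.38% and 2.16%, against 1.88% and 0.576%. Under median centring Cyp2f2 stood at −0.84. Without background correction, without a filter on dim probes, with probes above background in both channels, with the brightest probe, with outlier spots kept, with members by current symbol (106 genes) and with well measured genes alone, the counts were 3 and 0. Not set against the array median of each setting, the median of the members ran from −0.21 to −0.10 over all these settings. None of the 3 lower members changed sign. Under median centring 11 of the 97 members went from below to above 0, among them Fmo1, Cyp46a1, Cyp39a1, Cyp2j9, Gstm1, Gstm3, Gsto1, Gstt2 and Gstt3, and 10 from above to below. That centring left the array median at 0.22. Set against that median, 7 members went from below 0 to above it and 17 from above 0 to below it. Below it lay 72 of the 97 members, against 62 below 0 as reported. Cyp46a1, Cyp2j9 and Gstt3 stayed below the array median. Of 52 values compared, 29 moved beyond their error (scanner error of a gene, SD between probes for a median, 1.5 times for a count) under median centring, 11 with the software's ratio, 10 with the value table, 4 with an offset of 0, 3 without the filter on dim probes (Cyp2s1, Cyp1b1 and Ugt1a6b) and 1 with the brightest probe (Cyp2d22, 0.56); the cause was not tested. Signal over background is a further limit: 32 of the 97 members were under 2-fold above the negative controls in at least 1 channel. No paired analysis was possible because each genotype had 1 lung.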

Other observations

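Current RefSeq symbols place 9 more detected genes in these families that the file lists under clone names. Sult6b1 had the highest of their ratios, 0.60, with levels of 6.39 and 6.98 near the negative controls. Sult2a2 stood at −0.44, Cyp4a31 at −0.43 with levels of 8.23 and 7.81, and Gstp3 at −0.30 with levels of 8.19 and 7.89. Cyp2d12 stood at 0.25, Cyp4f41-ps at 0.14 and Sult2a8, with levels of 9.30 and 9.40, at 0.10. Cyp4f39 and Fmo9 both stood at −0.00.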
